A study of Mus musculus with 4 samples.

Results

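Gene expression in indirect-pathway spiny projection neurons (D2 neurons) of heterozygous zQ175 mice was set against that in D2 neurons of wild-type littermates, by RNA sequencing of sorted cells. zQ175 is a knock-in that carries an expanded CAG repeat in Htt and models Huntington's disease. The D2 Q175 library came from zQ175 heterozygotes crossed to a Drd2-EGFP reporter, a bacterial artificial chromosome transgene, and the D2 WT library from littermates that carried the reporter without the knock-in. All mice were male, 5 to 6 months old and on a C57BL6/J background. Cells were sorted from the striatum on EGFP. Each group was 1 library from a pool of 4 animals with 150000 cells from each, so differences between animals cannot be seen. The D1 Q175 and D1 WT libraries, made in the same way from Drd1-EGFP crosses, served for comparison and share no library with the D2 pair.

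Of 37620 genes in the count table, 10961 had a normalized CPM (the count scaled to a common library size) of at least 5 in either D2 library, and these are described. Just inside that limit stood Ogg1, a DNA glycosylase gene, with 5.000 CPM in D2 Q175 and 3.799 CPM in D2 WT, and just outside it Zfp809, a zinc finger gene, with 4.79 CPM in D2 Q175 and 4.98 CPM in D2 WT. Total counts were 42787014 in D2 Q175 and 40957833 in D2 WT, so that 1 CPM stood for 43.8 and 39.7 counts. A log2 ratio in D2 neurons is always D2 Q175 over D2 WT, and its interval is a 95% exact conditional binomial interval that covers counting error only. With 1 library per group no difference had a replicate check and no p-value was computed. "Higher" and "lower" therefore describe these 2 libraries.

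Indirect-pathway neurons are GABAergic projection neurons that send their axons to the external globus pallidus and restrain movement. They carry the dopamine receptor Drd2, which inhibits adenylyl cyclase, and the adenosine receptor Adora2a, which activates it, and they release enkephalin. Both signals meet at cyclic AMP, protein kinase A and the phosphatase inhibitor DARPP-32. These neurons are known to be affected early in Huntington's disease, and lower enkephalin, phosphodiesterase 10A and cannabinoid receptor mRNA are known in its models.

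The labelled cell type was checked against its markers. All 9 indirect-pathway markers in the table passed the CPM limit, and their summed level was 7216 CPM in D2 Q175 and 12811 CPM in D2 WT, beside 65.4 CPM in D1 Q175 and 119 CPM in D1 WT. The 9 direct-pathway markers summed to 138 CPM in D2 Q175 and 195 CPM in D2 WT, beside 3494 CPM in D1 Q175 and 4946 CPM in D1 WT. Drd2-EGFP reporters are known to label cholinergic interneurons too. The summed level of 6 cholinergic markers was 1.99 CPM in D2 Q175 and 1.08 CPM in D2 WT. Fewer cells of a type and less RNA per cell cannot be told apart in these pools.

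Summed markers of most other cell types were higher in D2 Q175, though the sum of GABAergic interneuron markers was lower. All 13 oligodendrocyte markers had a higher CPM there, with a sum of 529.8 CPM in D2 Q175 and 403 CPM in D2 WT. Of 12 astrocyte markers 11 were higher, with a sum of 350.1 CPM in D2 Q175 and 268 CPM in D2 WT, and of 12 microglia markers 11, with sums of 50.8 and 40.9 CPM. All 11 endothelial and mural markers were higher, with sums of 16.8 CPM in D2 Q175 and 10.01 CPM in D2 WT, as were all 10 cortical pyramidal neuron markers, with sums of 11.6 and 5.43 CPM. No marker of these 5 lists was at 0 counts in either D2 library. GABAergic interneuron markers summed to 11.03 CPM in D2 Q175 and 12.3 CPM in D2 WT, with 7 of 12 higher, Vip at 0 in both libraries and Htr3a at 0 in D2 WT. The lower sum turned on Chrna7, which had 2.21 CPM in D2 Q175 and 5.36 CPM in D2 WT, a wider difference than that of the sum. All 8 oligodendrocyte precursor markers were higher, with sums of 9.73 CPM in D2 Q175 and 5.31 CPM in D2 WT. Ependymal and choroid markers summed to 4.27 CPM in D2 Q175 and 3.25 CPM in D2 WT, with 3 of 6 higher and Ttr and Tmem212 at 0 in D2 Q175. Among single genes Slc1a3, an astrocyte glutamate transporter gene, stood at 30.8 CPM in D2 Q175 and 20.7 CPM in D2 WT. Mitochondrially encoded genes took 11.1% of the counts of D2 Q175 and 6.49% of those of D2 WT. The part of these differences in the results was not tested.

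In D2 Q175, 148 genes were at least 2-fold higher than in D2 WT (1.35% of the genes kept) and 116 were at least 2-fold lower (1.06%), 2.41% in either direction. Scaled by library totals the counts were 188 higher and 90 lower, and by totals without mitochondrially encoded genes 261 and 72, a scale that moved the median of all genes by 0.15. Around the higher limit, Agpat4, an acyltransferase gene, stood inside with 11.7 CPM in D2 Q175 and 5.84 CPM in D2 WT, and Asl, which encodes argininosuccinate lyase, outside with 30.7 and 15.3 CPM. Around the lower limit, Klf9, a transcription factor gene, stood inside with 39.8 CPM in D2 Q175 and 79.9 CPM in D2 WT, and Gpr6, an orphan receptor gene of indirect-pathway neurons, outside with 221 and 439 CPM. The whole interval lay past 2-fold for 83 of the higher and 60 of the lower genes. The share of large differences and their direction went with the level of the gene. Among 2939 genes whose higher library stood between 5 and 20 CPM, 111 were at least 2-fold higher and 64 lower. Among the 2463 genes that reached 100 CPM, 2 were at least 2-fold higher, both of them unnamed gene models, and 16 were at least 2-fold lower. The median log2 ratio was 0.08 in the low band and -0.15 in the high band, beside -0.03 over all genes kept, where 5999 of 10961 genes lay below 0.

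**Figure D1:**
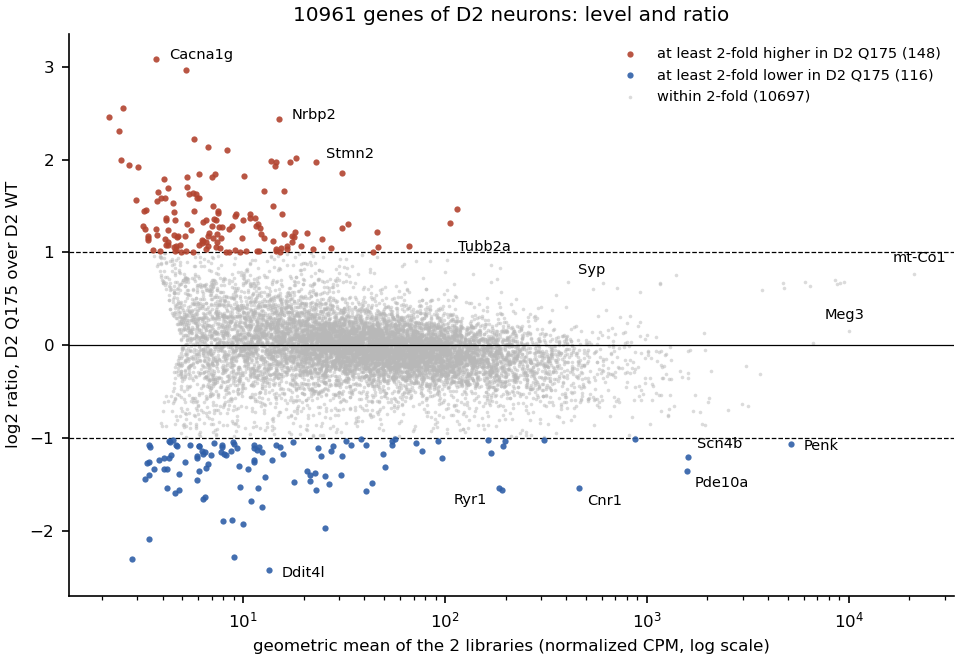
Log2 ratio of D2 Q175 over D2 WT (vertical) against the geometric mean of the normalized CPM of the 2 libraries (horizontal, log scale) for 10961 genes, 1 point per gene, with dashed lines at 2-fold. The 148 genes at least 2-fold higher (red) crowd at low levels, while the 116 lower ones (blue) extend to Penk, Pde10a and Scn4b.

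The largest downward differences in CPM were in genes by which spiny neurons are known. Penk, the enkephalin precursor, stood at 3582 CPM in D2 Q175 and 7476 CPM in D2 WT, the largest difference of any nuclear gene kept (log2 ratio -1.06, interval -1.07 to -1.05). On scales set by library totals, with and without mitochondrially encoded genes, the log2 ratio of Penk was -0.98 and -0.91, short of 2-fold. Per transcript length, Penk had 2669 FPKM in D2 Q175, below the long non-coding RNA Meg3 at 3584 FPKM, while in D2 WT Penk had 5438 FPKM and Meg3 3321 FPKM. Pde10a, which degrades cyclic AMP and cyclic GMP, stood at 989 CPM in D2 Q175 and 2517 CPM in D2 WT, 2.54-fold lower. Hpca, which encodes the calcium sensor hippocalcin, stood at 2527 CPM in D2 Q175 and 3986 CPM in D2 WT, and Ppp1r1b, which encodes DARPP-32, at 2372 CPM in D2 Q175 and 3667 CPM in D2 WT. Adcy5, the main striatal adenylyl cyclase gene, stood at 1440.4 CPM in D2 Q175 and 2613 CPM in D2 WT. The calcium-dependent phosphodiesterase gene Pde1b stood at 1982 CPM in D2 Q175 and 3211 CPM in D2 WT, and Arpp21, which encodes a regulator of calmodulin signalling, at 1398 CPM in D2 Q175 and 2504 CPM in D2 WT.

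The 30 genes of the list that marks spiny neurons of either pathway all passed the CPM limit. Of them 28 had a log2 ratio below 0, with a median of -0.65, and 5 were at least 2-fold lower, beside 1.06% of all genes kept. The 5 were Ddit4l, Cnr1, Pde10a, Scn4b and Rgs14, of which Rgs14 had -0.99 and was short of 2-fold on library totals without mitochondrially encoded genes. Cnr1, the cannabinoid receptor of spiny neuron terminals, stood at 270.5 CPM in D2 Q175 and 783 CPM in D2 WT, 2.90-fold lower. Scn4b, a sodium channel beta subunit gene, stood at 1060.3 CPM in D2 Q175 and 2429.6 CPM in D2 WT, and Rgs14, a regulator of G protein signalling, at 52.1 CPM in D2 Q175 and 114 CPM in D2 WT. The exceptions were Gpr149, an orphan receptor gene, with 29.2 CPM in D2 Q175 and 15.6 CPM in D2 WT (log2 ratio 0.90), and Wfs1, which encodes a protein of the endoplasmic reticulum, with 45.2 CPM in D2 Q175 and 40.8 CPM in D2 WT (log2 ratio 0.15).

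The indirect-pathway markers had a median log2 ratio of -0.53, with 8 of 9 below 0 (Ptprm at 0.03 on library totals without mitochondrially encoded genes) and Penk the 1 member at least 2-fold lower. Upb1, which encodes an enzyme of pyrimidine breakdown, had 11.8 CPM in D2 Q175 and 19.5 CPM in D2 WT, and Ptprm, a receptor phosphatase gene, had 72.9 CPM in D2 Q175 and 79.3 CPM in D2 WT. The spread within this list therefore reached from Penk to Grik3, a kainate receptor gene with a log2 ratio of 0.12. All 5 direct-pathway markers kept were below 0 in this D2 comparison too, Drd1 with 18.1 CPM in D2 Q175 and 33.03 CPM in D2 WT and the muscarinic receptor gene Chrm4 with 13.2 CPM in D2 Q175 and 22.4 CPM in D2 WT. Of all 9, 3 that missed the CPM limit were higher in D2 Q175. These were Pdyn, Isl1 and Eya1, with log2 ratios of 0.22, 0.70 and 0.98, whereas Ebf1, also under the limit, had -1.63. Ratios at such low levels hung on the processing. With other scalings, prior count or FPKM, those of Pdyn, Isl1 and Eya1 went down to 0.11, 0.08 and 0.31. That of Ebf1 went from -1.88 to -0.07. Of the striosome markers, 6 of 7 kept were below 0 (median -0.43), and of the matrix markers 4 of 6 (median -0.29). The lowest striosome marker was Nnat, an imprinted gene that encodes neuronatin, with 32.9 CPM in D2 Q175 and 74.1 CPM in D2 WT. Of 19 striatal transcription factor genes kept, 0 were at least 2-fold apart, beside 2.41% of all genes kept. Their median of -0.08 changed sign when library totals without mitochondrially encoded genes set the scale or the CPM limit was 1 or none. Foxo1 had 104 CPM in D2 Q175 and 159 CPM in D2 WT, and the retinoid receptor genes Rxrg and Rarb had log2 ratios of -0.60 and -0.57.

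**Figure D2:**
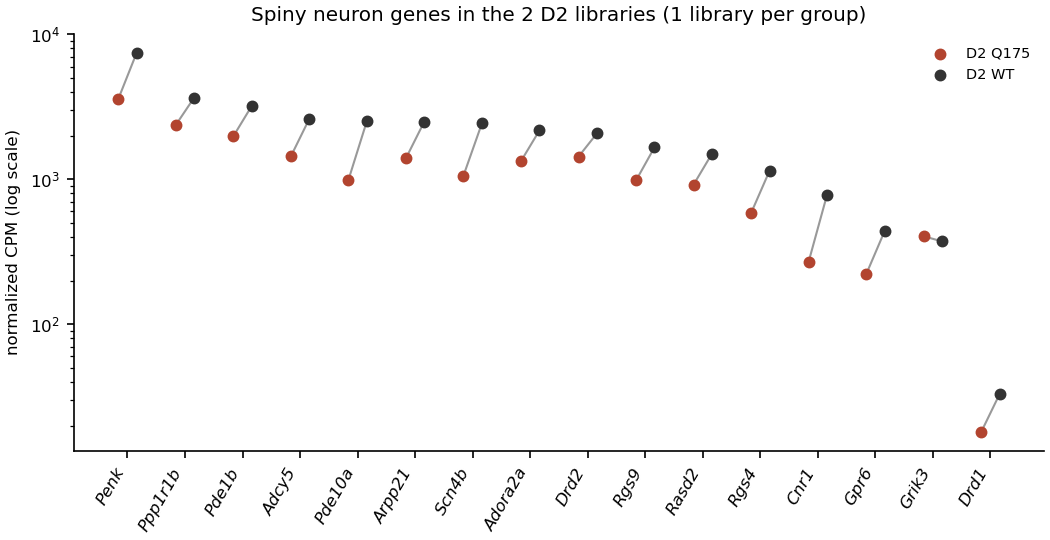
Normalized CPM (vertical, log scale) of 16 spiny neuron genes in D2 Q175 (red, left) and D2 WT (black, right), 1 library per group and no error bar. The 16 genes were picked by hand. Gpr149 and Wfs1 of the spiny neuron list, both higher in D2 Q175, are not among them. Of those shown, all but Grik3 stood lower in D2 Q175, from Penk at the top of the scale to Drd1, the direct-pathway receptor, at its foot.

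Receptors for dopamine, acetylcholine and adenosine were lower in D2 Q175 in 9 of 10 genes kept, with a median log2 ratio of -0.73. The muscarinic receptor gene Chrm3 had 3.56 CPM in D2 Q175 and 9.81 CPM in D2 WT (log2 ratio -1.45). Chrna7 and Chrna4, both nicotinic receptor subunit genes, had log2 ratios of -1.26 and -0.90. Adora1, the inhibitory adenosine receptor, had 174 CPM in D2 Q175 and 183 CPM in D2 WT, a smaller difference than that of Adora2a, which had 1336 CPM in D2 Q175 and 2173 CPM in D2 WT. Serotonin and adrenergic receptor genes were divided, with 4 of 8 in each direction and a median of -0.05 that turned positive on scales set by library totals or FPKM and over genes with whole counts. Htr1b, an inhibitory serotonin receptor, had 3.56 CPM in D2 Q175 and 11.3 CPM in D2 WT, whereas Htr2c, which couples to phospholipase C, had 126 CPM in D2 Q175 and 83.3 CPM in D2 WT.

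Peptide receptors differed among themselves as well. The delta opioid receptor gene Oprd1, on whose product enkephalin acts, had 17.2 CPM in D2 Q175 and 33.7 CPM in D2 WT. Oprl1, the nociceptin receptor, had 34.8 CPM in D2 Q175 and 17.99 CPM in D2 WT, and Tacr1, the substance P receptor, 7.12 CPM in D2 Q175 and 3.14 CPM in D2 WT. Of 7 neuropeptide genes kept 5 were below 0, and Nts, the neurotensin precursor, was the highest in ratio with 25.9 CPM in D2 Q175 and 14.7 CPM in D2 WT. Among 8 endocannabinoid genes, 4 were above and 4 below 0. Besides Cnr1, Dagla, which makes 2-arachidonoylglycerol, was lower with 131 CPM in D2 Q175 and 168 CPM in D2 WT. Faah, which degrades anandamide, had 30.96 CPM in D2 Q175 and 15.9 CPM in D2 WT, and Cnrip1, which encodes a protein that binds the cannabinoid receptor, 29.9 CPM in D2 Q175 and 17.4 CPM in D2 WT.

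Downstream of the receptors, regulators of G proteins were mostly lower. Of 13 RGS genes kept, which speed up the shut-off of G proteins, 12 were below 0, with a median of -0.48. Rgs4 had 586 CPM in D2 Q175 and 1145 CPM in D2 WT (log2 ratio -0.97, interval -0.99 to -0.94), and Rgs20 had 42.3 CPM in D2 Q175 and 83.1 CPM in D2 WT. Rgs19 was the exception, with 18.7 CPM in D2 Q175 and 7.57 CPM in D2 WT, 2.48-fold higher. The 23 adenylyl cyclase and G protein genes kept had a median of -0.06, which changed sign on scales set by library totals or FPKM and with no CPM limit. Among them Adcy9, another cyclase gene, had 7.28 CPM in D2 Q175 and 17.5 CPM in D2 WT, while the G protein gamma subunit genes Gng4 and Gng3 had log2 ratios of 1.15 and 0.91. Of 14 phosphodiesterase genes 9 were below 0 (median -0.19, positive on library totals without mitochondrially encoded genes and over genes with whole counts), Pde7b with 91.4 CPM in D2 Q175 and 174 CPM in D2 WT and Pde4c, the 1 member at least 2-fold higher, with 5.53 CPM in D2 Q175 and 2.72 CPM in D2 WT (log2 ratio 0.61 from FPKM with a pseudocount of 1).

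Kinase and phosphatase genes that act on these signals were below 0 in most cases. Of 24 genes of protein kinase A, DARPP-32 and phosphatases, 20 were below 0 (median -0.27). Arpp19, whose product inhibits protein phosphatase 2A when phosphorylated, had 618 CPM in D2 Q175 and 1244 CPM in D2 WT, and Ptpn5, which encodes the striatal phosphatase STEP, had 1088 CPM in D2 Q175 and 1705 CPM in D2 WT. In the MAP kinase list 21 of 26 were below 0 (median -0.29), including the phosphatase gene Dusp14 with 89.4 CPM in D2 Q175 and 167 CPM in D2 WT. Of 18 genes of protein kinase C, phospholipase C and diacylglycerol kinases, 17 were below 0 (median -0.35). Plcb3, a phospholipase C gene, had 3.93 CPM in D2 Q175 and 9.03 CPM in D2 WT, and the 1 member above 0, the diacylglycerol kinase gene Dgka, had 10.1 CPM in D2 Q175 and 3.195 CPM in D2 WT.

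Genes of calcium release and clearance were lower as a group. Ryr1, an intracellular calcium release channel gene, had 109.6 CPM in D2 Q175 and 317 CPM in D2 WT, 2.89-fold lower (interval of the log2 ratio -1.58 to -1.48). Ryr3, its relative, had 552 CPM in D2 Q175 and 867 CPM in D2 WT, and Itpr1, the receptor for inositol trisphosphate, 389.6 CPM in D2 Q175 and 579 CPM in D2 WT. The plasma membrane calcium pump gene Atp2b1 had 984 CPM in D2 Q175 and 1653 CPM in D2 WT, whereas Atp2b4, of the same family, had 62.6 CPM in D2 Q175 and 40.5 CPM in D2 WT. Of 15 such genes kept, 12 were below 0, with a median of -0.45. Among calcium-calmodulin kinases and calcium sensors 18 of 23 were below 0 (median -0.35), among them Camkk2, an upstream kinase gene, with 62.3 CPM in D2 Q175 and 118 CPM in D2 WT. Vsnl1, a calcium sensor gene related to Hpca, differed the other way, with 22.7 CPM in D2 Q175 and 7.14 CPM in D2 WT.

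Ion channel genes held the highest ratio of the comparison. Cacna1g, a T-type calcium channel gene, had 481 counts (10.98 CPM) in D2 Q175 and 50 counts (1.26 CPM) in D2 WT, 8.73-fold higher (log2 ratio 3.08, interval 2.70 to 3.58). Cacna1e, the R-type channel gene, had 139 CPM in D2 Q175 and 283 CPM in D2 WT, and Cacnb2, which encodes an accessory beta subunit, 100.2 CPM in D2 Q175 and 174.9 CPM in D2 WT. Over the 15 calcium channel genes kept, 11 were below 0 (median -0.17, but -0.02 on library totals without mitochondrially encoded genes). Of 14 sodium channel genes 11 were below 0 (median -0.22), and Scn9a, which encodes a pore-forming subunit, was the 1 at least 2-fold higher, with 23.8 CPM in D2 Q175 and 8.38 CPM in D2 WT (log2 ratio 0.97 from FPKM with a pseudocount of 1). Of 20 genes of the Kv1, Kv2, Kv3 and Kv7 potassium channel families and their relatives, 16 were below 0 (median -0.29). Kcnh4 had 122 CPM in D2 Q175 and 221 CPM in D2 WT, and Kcnq3, a subunit of the M current, 5.43 CPM in D2 Q175 and 10.2 CPM in D2 WT. Hcn3, a pacemaker channel gene, had 17.5 CPM in D2 Q175 and 6.74 CPM in D2 WT.

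At the synapse, 15 of 18 postsynaptic scaffold genes were below 0 (median -0.38). Homer1, which links metabotropic glutamate receptors to calcium stores, had 182 CPM in D2 Q175 and 354 CPM in D2 WT, and Anks1b 258 CPM in D2 Q175 and 496 CPM in D2 WT. Shank1, another scaffold gene, had 19.3 CPM in D2 Q175 and 9.86 CPM in D2 WT. Of 6 metabotropic glutamate receptor genes 5 were below 0 (median -0.44), with Grm5 at 385 CPM in D2 Q175 and 579.6 CPM in D2 WT. In the ionotropic list 12 of 18 were below 0, with a median of -0.12 that changed sign on library totals without mitochondrially encoded genes and on FPKM. The kainate receptor gene Grik2 had 176 CPM in D2 Q175 and 332 CPM in D2 WT, whereas Grik4 had 6.74 CPM in D2 Q175 and 2.57 CPM in D2 WT. Cnih3, which encodes an AMPA receptor auxiliary protein, had 23.9 CPM in D2 Q175 and 11.6 CPM in D2 WT, and the AMPA receptor gene Gria1 had 819 CPM in D2 Q175 and 665 CPM in D2 WT, one of the 10 largest gains in CPM.

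On the inhibitory side, Gabrd, the delta subunit of extrasynaptic GABA receptors, had 161 CPM in D2 Q175 and 318 CPM in D2 WT, and Gabrg1, a gamma subunit, had 5.37 CPM in D2 Q175 and 1.94 CPM in D2 WT. The 21 GABA genes had a median of -0.02. Synaptic vesicle genes had a median of -0.07 over 33 genes. Both medians turned positive on scales set by library totals or FPKM, that of the GABA genes also over genes with whole counts. Syp, which encodes the vesicle protein synaptophysin, had 516 CPM in D2 Q175 and 321 CPM in D2 WT, and Unc13b, a vesicle priming gene, had 39.4 CPM in D2 Q175 and 22.9 CPM in D2 WT, while its relative Unc13a had 469 CPM in D2 Q175 and 716 CPM in D2 WT.

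**Figure D3:**
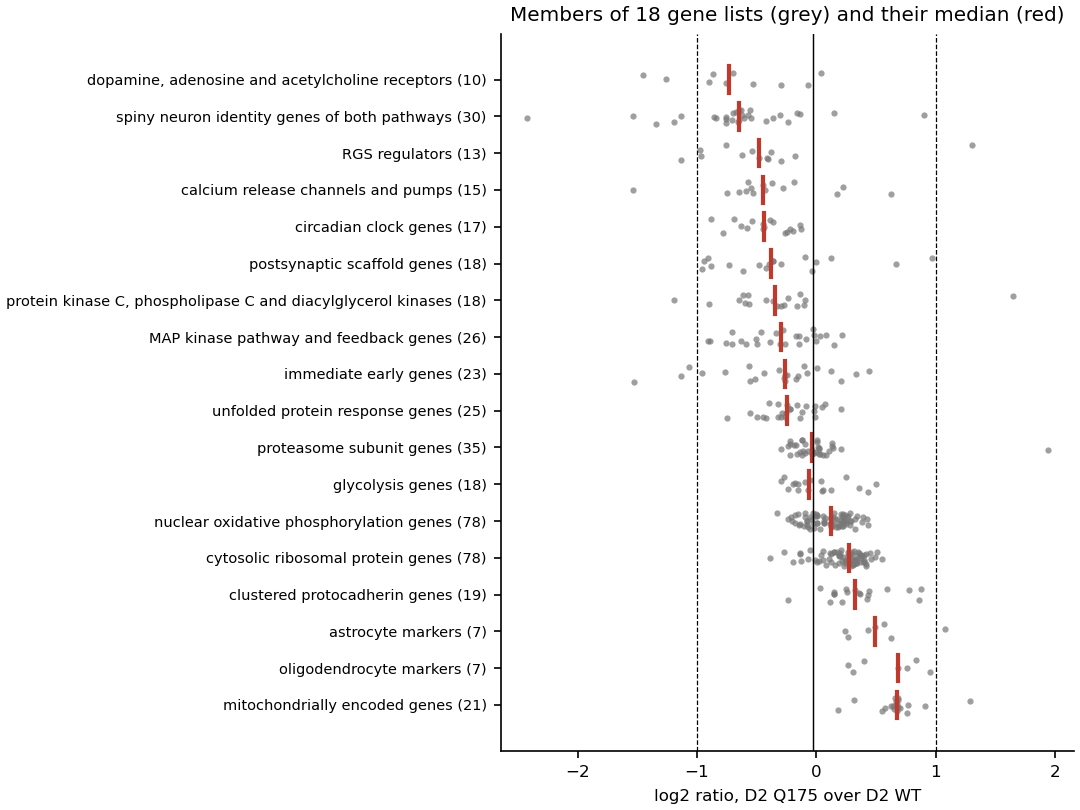
Log2 ratios of D2 Q175 over D2 WT (horizontal) for the kept members of 18 gene lists (grey points, number of members in brackets), with the list median in red, the median of all genes kept as a solid line and 2-fold as dashed lines. The spiny neuron, RGS and calcium release lists lie left of the median of all genes, the ribosomal protein and mitochondrially encoded lists right of it.

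Immediate early genes, which synaptic activity and calcium entry induce, were below 0 in 18 of 23 kept, with a median of -0.26. Of them 3 were at least 2-fold lower, beside 1.06% of all genes kept. Jun, which encodes a subunit of the AP-1 factor, had 249 counts (5.69 CPM) in D2 Q175 and 655 counts (16.5 CPM) in D2 WT (log2 ratio -1.53, interval -1.75 to -1.32). Egr3, a zinc finger factor gene of the Egr family, had 18.3 CPM in D2 Q175 and 40.3 CPM in D2 WT, and Egr2 28.2 CPM in D2 Q175 and 59.2 CPM in D2 WT. On library totals the log2 ratio of Egr2 was -0.99, and on those without mitochondrially encoded genes that of Egr3 was -0.98, short of 2-fold. Egr1, of the same family, had 649 CPM in D2 Q175 and 1104 CPM in D2 WT. The Fos members of AP-1 did not share the direction of Jun. Fos had 71.97 CPM in D2 Q175 and 52.9 CPM in D2 WT, and Fosb 49.5 CPM in D2 Q175 and 45.5 CPM in D2 WT.

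The promoters of Jun and Egr2, from the lower end of the immediate early list, and of Ddit4l, the lowest of all genes kept, are given from RefSeq on GRCm38.p6, from 250 bases before to 50 bases after a transcription start. Capitals mark TGACG, the core of the cyclic AMP response element to which CREB-family factors are known to bind, read on either strand. Of 5 Egr2 starts in the table, the one shown holds the most matches. It lies at chr10:67537619-67537918 on the plus strand, with matches that begin at positions -111 and -55 from the start. The Jun promoter, at chr4:95052173-95052472 on the minus strand, and that of Ddit4l, at chr3:137623422-137623721 on the plus strand, hold no such letters.
Jun: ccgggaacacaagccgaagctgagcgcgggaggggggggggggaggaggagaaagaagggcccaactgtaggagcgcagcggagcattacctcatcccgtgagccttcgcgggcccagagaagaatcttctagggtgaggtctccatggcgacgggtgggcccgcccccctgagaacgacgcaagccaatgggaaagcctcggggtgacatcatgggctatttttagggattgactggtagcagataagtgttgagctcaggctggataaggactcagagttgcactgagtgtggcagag
Egr2: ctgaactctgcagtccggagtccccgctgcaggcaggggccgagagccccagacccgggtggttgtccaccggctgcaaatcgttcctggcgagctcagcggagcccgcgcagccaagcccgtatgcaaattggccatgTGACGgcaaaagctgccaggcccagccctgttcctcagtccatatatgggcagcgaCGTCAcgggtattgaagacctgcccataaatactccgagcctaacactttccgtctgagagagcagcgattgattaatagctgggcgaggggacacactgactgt
Ddit4l: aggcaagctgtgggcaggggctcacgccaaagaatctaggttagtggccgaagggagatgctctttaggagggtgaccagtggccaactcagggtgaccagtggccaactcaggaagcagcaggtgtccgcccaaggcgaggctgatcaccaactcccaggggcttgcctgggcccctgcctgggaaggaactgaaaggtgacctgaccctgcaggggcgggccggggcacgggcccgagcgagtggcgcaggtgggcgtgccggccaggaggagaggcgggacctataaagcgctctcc

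Of the genes kept, 8400 matched at least 1 promoter in the table, and TGACG stood in a promoter of 38.0% of them, on either strand and in any of a gene's promoters. It stood in those of 12 of 18 immediate early genes with an entry, of 25 of 84 genes at least 2-fold lower in D2 Q175 and of 27 of 105 genes at least 2-fold higher. The full element TGACGTCA, which contains the core, stood in 3.88% of all. CACGTG, the E-box that clock factors are known to bind, stood in 12.2% of all, in 5 of 15 clock genes and in 6 of 20 spiny neuron genes with an entry. A match describes letters in this window and nothing more.

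All 17 circadian clock genes kept had a log2 ratio below 0, with a median of -0.44. Of them 0 were at least 2-fold apart, beside 2.41% of all genes kept. Per2, a repressor of the clock, had 67.1 CPM in D2 Q175 and 123 CPM in D2 WT (log2 ratio -0.88). The output factor gene Dbp had 156 CPM in D2 Q175 and 253 CPM in D2 WT, and Ciart, a further repressor, 13.8 CPM in D2 Q175 and 23.7 CPM in D2 WT. Arntl, whose product activates Per2 and Dbp, had 59.8 CPM in D2 Q175 and 92.6 CPM in D2 WT, so activator and repressor genes stood on the same side. The time of day of collection is not given in the sources used here.

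The lowest ratio of the comparison was that of Ddit4l, whose product restrains mTOR signalling, with 253 counts (5.78 CPM) in D2 Q175 and 1238 counts (31.1 CPM) in D2 WT. It was 5.39-fold lower (interval of the log2 ratio -2.63 to -2.23). Of 21 mTOR and energy sensing genes kept, 14 were below 0 (median -0.23). Ddit4l was the 1 at least 2-fold apart, beside 2.41% of all genes kept. Deptor, which encodes an inhibitor within the mTOR complexes, had 17.03 CPM in D2 Q175 and 30.8 CPM in D2 WT, and Rasd2, a striatal small GTPase gene, 919 CPM in D2 Q175 and 1505 CPM in D2 WT. Phex, an endopeptidase gene, had 4.11 CPM in D2 Q175 and 20.1 CPM in D2 WT, and Wnt4, a secreted signalling protein gene, 1.64 CPM in D2 Q175 and 7.14 CPM in D2 WT. Gpx6, a glutathione peroxidase gene, had 5.14 CPM in D2 Q175 and 19.6 CPM in D2 WT, and Cpne9, of the copine family, 4.61 CPM in D2 Q175 and 17.1 CPM in D2 WT.

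More abundant genes that were over 2-fold lower included Lrrk2, the kinase gene mutated in some familial Parkinson's disease, with 112 CPM in D2 Q175 and 328 CPM in D2 WT (2.94-fold lower). Coch, which encodes a secreted matrix protein, had 113 CPM in D2 Q175 and 254 CPM in D2 WT, and Neto2, an auxiliary subunit of kainate receptors, 133 CPM in D2 Q175 and 281 CPM in D2 WT, although the log2 ratio of Neto2 was -0.93 on library totals without mitochondrially encoded genes. Dock4, an exchange factor gene for small GTPases, had 63.5 CPM in D2 Q175 and 147 CPM in D2 WT. Clspn, which encodes a checkpoint mediator of DNA replication, had 15.98 CPM in D2 Q175 and 44.96 CPM in D2 WT. The p53 and DNA damage list to which it belongs had 1 member at least 2-fold apart in each direction among 23 kept. Over all genes kept, 1.35% were at least 2-fold higher and 1.06% lower.

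Genes of protein folding in the endoplasmic reticulum were mostly lower, by little. Of 25 unfolded protein response genes kept, 22 were below 0, with a median of -0.24. Of them 0 were at least 2-fold apart, beside 2.41% of all genes kept. Atf6, a stress sensor gene, had 71.9 CPM in D2 Q175 and 121 CPM in D2 WT, and Hspa5, the main chaperone of the reticulum, 149.6 CPM in D2 Q175 and 205 CPM in D2 WT. Cytosolic chaperones had a median of -0.17, with 18 of 21 below 0, but the median was -0.02 on library totals without mitochondrially encoded genes. Proteasome subunit genes had a median of -0.04 that turned positive on scales set by library totals or FPKM. Of 35 kept, 1 was at least 2-fold apart, beside 2.41% of all genes kept. It was Psmb10, an immunoproteasome subunit, with 238 counts (5.43 CPM) in D2 Q175 and 55 counts (1.38 CPM) in D2 WT. Psme1, which encodes a proteasome activator subunit, had 24.2 CPM in D2 Q175 and 10.5 CPM in D2 WT, and H2-D1, a class I histocompatibility gene, 17.7 CPM in D2 Q175 and 6.59 CPM in D2 WT. Microglia, which hold immunoproteasome and class I genes, had the marker sums given earlier, and their part in these values was not tested.

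Mitochondrially encoded genes were higher in all 21 kept, with a median of 0.67 in D2 and of 0.44 in D1, where they took 8.98% of the counts of D1 Q175 and 6.06% of those of D1 WT. mt-Co1, which encodes a cytochrome oxidase subunit, had 27343 CPM in D2 Q175 and 16082 CPM in D2 WT. The ribosomal RNA mt-Rnr2 had 1465 CPM in D2 Q175 and 919.5 CPM in D2 WT, and mt-Rnr1 had 639.7 CPM in D2 Q175 and 514 CPM in D2 WT, with log2 ratios of 0.67 and 0.32. The nuclear genes of the same respiratory complexes differed far less. Of 78 kept, 54 were above 0, with a median of 0.12 and a range of -0.33 to 0.44, beside a median of -0.08 for the same list in D1 Q175 over D1 WT. Cytosolic ribosomal protein genes were above 0 in 69 of 78 kept, with a median of 0.28 in D2 and of 0.01 in D1. Rpl38 had 75.99 CPM in D2 Q175 and 51.9 CPM in D2 WT, and Rpl10a, the lowest of the list, 89.6 CPM in D2 Q175 and 117 CPM in D2 WT. Reads of ribosomal protein genes can be shared with pseudogene copies, and how the counting split them is not given in the sources used here. Glycolysis genes had 0 of 18 members at least 2-fold apart, beside 2.41% of all genes kept.

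Log2 ratios also went with transcript length. The median was 0.07 in the fifth of genes with the shortest annotated transcripts, 66 to 2085 bases, and -0.14 in the fifth with the longest, 5524 bases and more. It stood at 0.01, -0.02 and -0.08 in the groups between. In D1 Q175 over D1 WT the same genes had medians of -0.02 in the shortest and -0.07 in the longest group. The labels give no measure of RNA quality per library, and its part in this pattern was not tested.

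**Figure D4:**
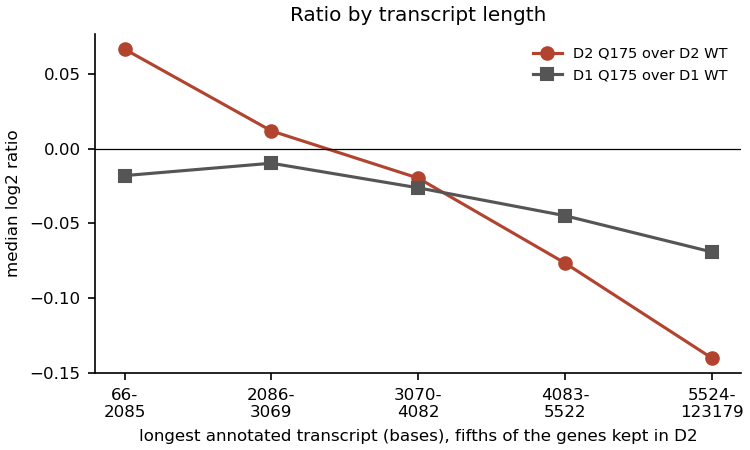
Median log2 ratio (vertical) in 5 groups of the genes kept, ordered by the length in bases of their longest annotated transcript (horizontal), for D2 Q175 over D2 WT (red circles) and D1 Q175 over D1 WT (grey squares). The D2 medians go down through the 5 groups, between 0.07 and -0.14.

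Among abundant nuclear genes that were higher, Tubb2a, a neuronal beta tubulin gene, had 142 CPM in D2 Q175 and 74.9 CPM in D2 WT (1.90-fold higher). Beta tubulin genes resemble each other, so reads may be split among them. Faim2, an inhibitor of Fas-mediated cell death, had 228 CPM in D2 Q175 and 126 CPM in D2 WT, and Polr2a, the largest subunit of RNA polymerase II, 132 CPM in D2 Q175 and 76.4 CPM in D2 WT. Stmn2, which encodes a tubulin-binding protein of growing axons, had 1998 counts (45.6 CPM) in D2 Q175 and 461 counts (11.6 CPM) in D2 WT, 3.93-fold higher. Stmn1 had 20.8 CPM in D2 Q175 and 10.6 CPM in D2 WT, and Dcx, a microtubule protein gene of migrating neurons, 34.7 CPM in D2 Q175 and 21.1 CPM in D2 WT. The list of stathmins, tubulins and microtubule proteins had 12 of 24 genes in each direction, with Map2, a dendritic microtubule protein gene, lowest at 299 CPM in D2 Q175 and 470.2 CPM in D2 WT.

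The other high ratios belonged to genes of low level. Nrbp2, a pseudokinase gene, had 35.1 CPM in D2 Q175 and 6.44 CPM in D2 WT, 5.46-fold higher. Sfmbt2, a Polycomb-group gene, had 14.2 CPM in D2 Q175 and 3.195 CPM in D2 WT, while the 31 Polycomb genes kept had a median of -0.03 whose sign turned on scales set by library totals or FPKM and over genes with whole counts. Of the histone deacetylase genes Hdac1 had 25.5 CPM in D2 Q175 and 9.53 CPM in D2 WT and Hdac7 26.3 CPM in D2 Q175 and 11.6 CPM in D2 WT. Cers2, a ceramide synthase gene that myelin-forming cells express, had 28.9 CPM in D2 Q175 and 7.35 CPM in D2 WT, and oligodendrocyte markers were higher too, their part in it not tested. Ltk, a receptor tyrosine kinase gene, had 34.1 CPM in D2 Q175 and 8.63 CPM in D2 WT, and Olfm2, which encodes an olfactomedin, 27.5 CPM in D2 Q175 and 6.94 CPM in D2 WT. Elavl2, a neuronal RNA-binding protein gene, had 5.14 CPM in D2 Q175 and 1.71 CPM in D2 WT.

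Clustered protocadherin genes, which give neurons their surface identity, were above 0 in 18 of 19 kept with a median of 0.32, led by Pcdhb9 with 14.6 CPM in D2 Q175 and 7.98 CPM in D2 WT. Members of these clusters resemble each other, and some share exons, so reads may be split among them. Outside the clusters, Pcdh20 had 5.53 CPM in D2 Q175 and 1.08 CPM in D2 WT, and Pcdh19 10.3 CPM in D2 Q175 and 3.296 CPM in D2 WT. In the axon guidance list 1 of 36 was at least 2-fold apart, beside 2.41% of all genes kept. It was the semaphorin gene Sema4g with 12.5 CPM in D2 Q175 and 4.53 CPM in D2 WT (log2 ratio 0.95 from FPKM with a pseudocount of 1). Sema6c and Plxna3, a semaphorin and a plexin gene that the list lacks, had log2 ratios of 1.44 and 1.42. Slit3, which encodes a secreted guidance cue, had 17.8 CPM in D2 Q175 and 34.8 CPM in D2 WT.

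Htt itself had 121 CPM in D2 Q175 and 154 CPM in D2 WT. A knock-in allele is still transcribed, so the level of Htt cannot serve as a check of the labels. Among genes of mismatch repair and repeat instability, 12 of 13 kept were above 0 by little (median 0.13), with Msh3 at 43.9 CPM in D2 Q175 and 37.3 CPM in D2 WT. Of 22 genes of huntingtin partners and polyglutamine proteins, 1 was at least 2-fold apart, beside 2.41% of all genes kept. It was Atxn1, the gene of spinocerebellar ataxia type 1, with 6.26 CPM in D2 Q175 and 12.9 CPM in D2 WT. Its log2 ratio was -0.96 on library totals, short of 2-fold.

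Most of the genes at least 2-fold apart in D2 neurons stood on the same side in D1 neurons. Of the 148 higher genes 146 had the same sign in D1 Q175 over D1 WT and 81 were at least 2-fold higher there. Of the 116 lower genes 115 had the same sign and 46 were at least 2-fold lower. These counts used no CPM limit in D1. Of the 10926 genes with at least 5 CPM in either D1 library, 1.12% were at least 2-fold higher and 0.705% lower. Among the 10735 genes kept in both comparisons, 68 were at least 2-fold higher in both, beside 111 in D1. At least 2-fold lower in both were 45, beside 67 in D1. The sign was also the same for 8066 of the 10697 genes within 2-fold in D2. The difference between the D2 and D1 ratios could not be tested with 1 library per group. Among named higher genes whose ratio was wider in D2, the widest gaps were those of Trp53i11, a p53-induced gene, and Cacna1g. Trp53i11 had 36.7 CPM in D2 Q175 and 9.03 CPM in D2 WT (log2 ratio 2.02), beside 45.9 CPM in D1 Q175 and 28.7 CPM in D1 WT (log2 ratio 0.68). Cacna1g had a log2 ratio of 3.08 in D2 and of 1.77 in D1. Fxyd7, a sodium pump regulator gene, had 10.6 CPM in D2 Q175 and 5.08 CPM in D2 WT, beside 41.4 CPM in D1 Q175 and 39.7 CPM in D1 WT. Sfmbt2 had a gap of larger size in the other direction, with a log2 ratio of 2.13 in D2 and 4.83 in D1.

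Among named lower genes whose ratio was further from 0 in D2, the widest gap was that of Cdr1, with 18.8 CPM in D2 Q175 and 49.6 CPM in D2 WT (log2 ratio -1.40), beside 43.7 CPM in D1 Q175 and 49.8 CPM in D1 WT (log2 ratio -0.19). A transcript antisense to Cdr1 is known, and since the counting is not stated to use strand, their reads cannot be told apart. Col6a4, a collagen gene, had 25.9 CPM in D2 Q175 and 72.7 CPM in D2 WT, and its log2 ratio was -1.48 in D2 and -0.47 in D1. Alk, a receptor tyrosine kinase gene, had 3.01 CPM in D2 Q175 and 6.19 CPM in D2 WT, while the D1 pair had 1.56 CPM in D1 Q175 and 1.44 CPM in D1 WT. Among more abundant genes Lrrk2 had a log2 ratio of -1.56 in D2 and -1.04 in D1, Cnr1 one of -1.53 and -1.01, and Trank1 one of -0.71 and -0.18. Penk, with 41.7 CPM in D1 Q175 and 84.2 CPM in D1 WT, had log2 ratios of -1.06 in D2 and -1.01 in D1.

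**Figure D5:**
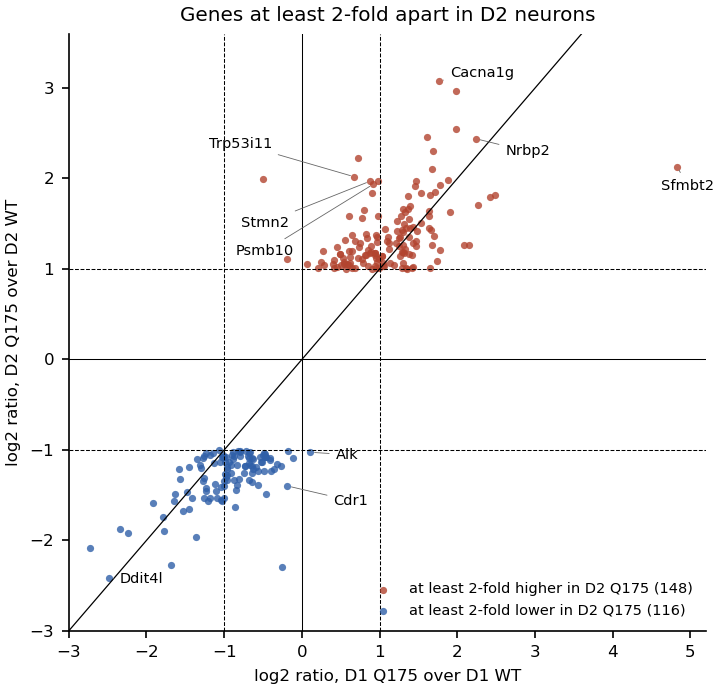
Log2 ratio of D2 Q175 over D2 WT (vertical) against that of D1 Q175 over D1 WT (horizontal) for the 148 genes at least 2-fold higher (red) and the 116 at least 2-fold lower (blue) in D2 neurons, with dashed lines at 2-fold and a diagonal at equal ratios. The vertical position chose the genes. Most points lie on the same side of 0 in D1 neurons, with Cdr1 and Alk near 0 there.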

How the data were processed

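The authors deposited expected counts (estimated counts per Ensembl gene, not normalized), which were rounded to whole numbers; 45.7% of the genes kept had a count that was not whole. Their second deposited table holds FPKM values, scaled by length and depth. The submitters' processing notes name CASAVA 1.8.2. Aligner, counter, genome build and annotation release were not given in the sources used. Of 37620 Ensembl identifiers 32897 had a symbol, and transcript lengths came from GENCODE M21.

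Libraries were scaled by TMM, the trimmed mean of M values, with edgeR 4.0.16 (R 4.3.3) on the 4 libraries together, and log2 ratios used a prior count of 2. The alternatives were other scalings, FPKM, other CPM limits, another prior count and genes with whole counts alone.

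Members and the 77 gene lists were chosen with earlier results of these data known. The rule for named genes (328) mostly took symbols whose interval excluded 0. These were the 12 highest and 12 lowest ratios, and the 15 highest and 15 lowest at 100 CPM or more. To these came the 10 largest gains and losses in CPM of nuclear genes, and up to 4 members per list by size of ratio. Among genes at least 2-fold apart it took the 10 widest gaps to D1 in each direction. The rule also took pathway markers and Htt, whatever their interval or CPM. Genes outside it (Adora1, Egr1, Fos, Fosb, H2-D1, Map2, Plxna3, Psme1, Rpl10a, Sema6c, Wfs1, mt-Rnr1, mt-Rnr2 and those beside the CPM and 2-fold limits) were chosen after their values were seen. Some genes that the rule names are not reported here. On simulated counts for this comparison, 100% of 200 genes changed 4-fold were recovered among 10815 genes, and 95.2% of intervals held the true ratio. The simulation drew Poisson counting error alone, so it checks the calculation and cannot show variation between animals or libraries.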

Additional observations from a re-analysis of the deposited data

Results flagged for a closer look

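Differences of opposite direction in D2 and D1 neurons were found for 2 named genes, where the counting interval of each ratio excluded 0 on the TMM scale. Tac1, the substance P precursor of direct-pathway neurons, had 80.4 CPM in D2 Q175 and 108 CPM in D2 WT, beside 889 CPM in D1 Q175 and 824 CPM in D1 WT. Its log2 ratio was -0.43 in D2 and 0.11 in D1, a gap of -0.54. Grik3, a kainate receptor gene of indirect-pathway neurons, had 404 CPM in D2 Q175 and 373 CPM in D2 WT, beside 2.23 CPM in D1 Q175 and 2.95 CPM in D1 WT. Its log2 ratio was 0.12 in D2 and -0.40 in D1, a gap of 0.52, and the D1 interval of -0.82 to -8.03e-05 ended just below 0. Neither difference was tested, since each group held 1 library.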

How the results depend on the processing

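No paired analysis was possible because each group held 1 library, and leaving out a replicate was not possible for the same reason. The counts of genes at least 2-fold higher and lower in D2 Q175 (148 and 116) were 149 and 116 with RLE size factors, 148 and 115 with TMM over the D2 pair alone, 151 and 116 with a prior count of 0.5, and 104 and 79 over genes with whole counts. They were 188 and 90 when scaled by library totals and 173 and 88 with FPKM and a pseudocount of 0.1, so higher genes made up 67.6% and 66.3% of them, against 56.1%. Totals without mitochondrially encoded genes gave 261 and 72 (78.4% higher) and moved the median of all genes by 0.15. FPKM with a pseudocount of 1 gave 87 and 43 (66.9% higher), a CPM minimum of 20 gave 37 and 52 (41.6% higher), one of 1 gave 459 and 232 (66.4% higher), and no minimum gave 1436 and 1088. Of the 148 higher genes 148 remained under library totals, and of the 116 lower genes 90. Of 84 named genes at least 2-fold apart, all 84 kept their sign under every other scaling, FPKM and prior count tried. They include Ebf1, which missed the CPM limit and whose log2 ratio came as near 0 as -0.07. Of the 84, 74 stayed 2-fold apart on library totals and 69 on those without mitochondrially encoded genes. With FPKM 72 did at a pseudocount of 0.1 and 46 at a pseudocount of 1, which shrinks ratios of low genes.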

Other observations

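The actin regulator, neurotrophin, cholesterol synthesis and Rab GTPase lists held 0 genes at least 2-fold apart. The sphingolipid list held 1 of 25 kept, Cers2, beside 2.41% of all genes kept. Of 33 actin regulator genes kept, 25 were below 0 (median -0.17, but -0.02 on library totals without mitochondrially encoded genes). The lowest was Kalrn, an exchange factor gene of dendritic spines, with 200.2 CPM in D2 Q175 and 348 CPM in D2 WT. Of 12 neurotrophin genes 10 were below 0 (median -0.25), with the receptor gene Ntrk3 at 19.5 CPM in D2 Q175 and 33.3 CPM in D2 WT. Of 26 cholesterol synthesis genes 17 were above 0 (median 0.11, but -0.01 with a CPM minimum of 20), with Mvk, which encodes mevalonate kinase, at 14.9 CPM in D2 Q175 and 9.66 CPM in D2 WT and Msmo1, a sterol demethylation gene, at 50.5 CPM in D2 Q175 and 75.2 CPM in D2 WT. In the sphingolipid list Smpd3, a neutral sphingomyelinase gene, had 43.6 CPM in D2 Q175 and 71.4 CPM in D2 WT, and St8sia3, a sialyltransferase gene, 454 CPM in D2 Q175 and 678 CPM in D2 WT. Of 45 Rab GTPase genes, which direct vesicle traffic, 0 were at least 2-fold apart, and Rab34 had 81.1 CPM in D2 Q175 and 54.4 CPM in D2 WT.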
